A study of Mus musculus with 7 samples.

Results

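Open chromatin of Sox2-positive cells sorted from the mouse lower incisor at postnatal day 2 (P2) was set against that of first pharyngeal arch ectoderm at embryonic day 11.5 (E11.5). The comparison used 4 of the 7 ATAC-seq libraries of the study, 2 per group. Peaks of the 4 lists on chromosomes 1 to 19 that shared at least 1 bp were joined into regions. A region counted as group-only when both libraries of one group had a peak there and neither library of the other did. In the deposited lists 30901 of 99961 regions met this rule, and 21564 of 65792 did when each list was limited to its 38000 peaks with the smallest p-values. The study profiled mouse teeth and their embryonic source with Omni-ATAC, in which a transposase tags accessible DNA. Its other 3 libraries, whole lower incisor, lower first molar and upper first molar at P2, served here only to say where else a region was open.

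The Sox2-positive cells came from a mouse line, named Sox2-GFP in the labels, in which the endogenous Sox2 promoter drives the fluorescent protein. The labial cervical loop was cut from lower incisors, dissociated with collagenase and neutral protease, and sorted by flow cytometry. The labels call these cells DESC and describe them as dental epithelial stem cells. The ectoderm was peeled by hand from the arch mesenchyme after Dispase II, and no reporter or sort is named for it. The strain, the number of animals behind each library and whether the replicates came from separate animals are not given in the sources used here, so the spread between replicates may be technical. Age, tissue, enzyme, reporter line and sorting all differ between the groups and cannot be told apart.

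The ectoderm covering the first arch forms the oral surface, and the dental epithelium grows from it. It patterns the jaw through secreted signals such as FGF8, BMP4 and endothelin 1. The rodent incisor grows throughout life because epithelial progenitors in the labial cervical loop keep producing ameloblasts, the cells that secrete enamel, and SOX2 marks these progenitors. Open sites at gene starts are often shared between cell types, whereas enhancers away from genes tend to differ.

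The 3 genes of the RUNX family, transcription factors that bind the hexamer TGTGGT and act in bone, blood and epithelium, each had a Sox2-positive-only region over the annotated start at or close to the outer end of the gene. The windows are shown because they share a sequence that the comparison did not use. They run from 250 bases before to 50 bases after a start in the RefSeq table of GRCm38.p6, and are given 5′ to 3′ on the gene's strand with matches to the hexamer or its reverse, ACCACA, in capitals. The Runx1 window lay at chr16:92826025-92826324 (minus strand), the Runx2 window at chr17:44814578-44814877 (minus strand) and the Runx3 window at chr4:135120395-135120694 (plus strand).
Runx1: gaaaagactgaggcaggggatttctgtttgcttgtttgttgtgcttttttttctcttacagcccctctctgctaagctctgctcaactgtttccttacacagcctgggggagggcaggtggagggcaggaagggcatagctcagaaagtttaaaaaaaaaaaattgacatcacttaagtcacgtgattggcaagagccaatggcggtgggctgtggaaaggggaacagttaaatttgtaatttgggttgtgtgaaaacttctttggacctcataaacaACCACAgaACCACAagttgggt
Runx2: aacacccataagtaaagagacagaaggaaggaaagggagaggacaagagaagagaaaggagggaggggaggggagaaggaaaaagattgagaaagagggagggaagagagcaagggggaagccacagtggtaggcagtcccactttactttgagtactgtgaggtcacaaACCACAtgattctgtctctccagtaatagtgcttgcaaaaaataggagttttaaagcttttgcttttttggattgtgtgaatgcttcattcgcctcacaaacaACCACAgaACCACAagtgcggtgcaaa
Runx3: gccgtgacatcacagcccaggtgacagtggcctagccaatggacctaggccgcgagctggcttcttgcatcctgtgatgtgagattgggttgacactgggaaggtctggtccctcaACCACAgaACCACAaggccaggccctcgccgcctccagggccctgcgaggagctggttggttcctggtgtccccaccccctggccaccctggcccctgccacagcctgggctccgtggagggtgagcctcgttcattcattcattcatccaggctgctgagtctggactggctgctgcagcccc

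All 3 windows held the run ACCACAgaACCACA, a pair of hexamers 2 bases apart in the same orientation. Of the 20085 autosomal windows in the table, 3 held that run on either strand, and these were the 3 RUNX windows. Allowing any 2 bases between the hexamers added 1 window, which lay under no peak of the 4 libraries. The shared run was noticed in these windows and then counted over all, and Runx1 and Runx3 were named after their values had been seen. Runx2 was on a marker list. The 3 genes belong to 1 family, so their windows are not independent cases of the run.

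The peaks over these starts were present in both Sox2-positive libraries and absent from both ectoderm libraries, in the deposited lists and at 38000 peaks per list. The peak signal, the area under the significance curve that the caller reports, was 2613 in Sox2-positive replicate 1 and 3903 in replicate 2 at Runx3. It was 527 and 913 at Runx1 and 263 and 1176 at Runx2, so the Runx2 peak was weak in replicate 1. In the deposited lists whole incisor and both molars also showed a peak over each of the 3 starts. The inner start of Runx1, 129 kb away and without the hexamer, had a peak in all 4 libraries. The inner start of Runx3, 31.9 kb from the outer start, showed a peak in every library of the 4 but ectoderm replicate 2.

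A wider look at gene starts used all windows whose overlapping regions belonged to 1 set. There were 68 windows of 67 genes under Sox2-positive-only regions and 998 windows of 899 genes under ectoderm-only regions. The RUNX hexamer, searched on both strands, was in 33.8% of the Sox2-positive-only windows (Wilson 95% interval 23.7 to 45.7), 11.2% of the ectoderm-only windows (9.41 to 13.3) and 14.8% of all windows. Without the RUNX genes the first share was 30.8%, or 20 of 65 windows. At 38000 peaks per list the share with the RUNX genes fell to 19.5% of 174 windows (14.3 to 26.1), an interval that held the 14.8% of all windows. Without the RUNX genes it was then 18.1%, or 31 of 171 windows.

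Base composition also differed in the deposited lists. The median GC content was 52.8% in Sox2-positive-only windows, 57.7% in ectoderm-only windows and 62.7% in windows open in all 4 libraries, with medians of 5, 13 and 22 CpG dinucleotides. With 38000 peaks per list the median GC content was 58.0% for Sox2-positive-only and 57.5% for ectoderm-only windows, so the difference between them turned round. Within windows of 45 to 50% GC the hexamer was in 7 of 14 Sox2-positive-only windows, against 21.1% of all windows of that class. It was in 7 of 20 at 50 to 55% GC (all windows 18.6%), in 5 of 16 at 55 to 60% (15.7%) and in 4 of 10 above that (9.09%). None of the 8 windows below 45% GC held it (19.5%). These classes still include the RUNX windows, each with the hexamer. Runx1 (45% GC) and Runx2 (45.3%) lay in the 45 to 50% class and Runx3 (63.7%) in the highest. At equal list lengths the counts were 7 of 22, 8 of 35, 7 of 32 and 12 of 73 in the 4 classes from 45% GC upward. These are 31.8%, 22.9%, 21.9% and 16.4%, and below 45% the count was 0 of 12. The shares of all windows by class do not depend on the lists and are those given above. The AP-2 letters GCCNNNGGC were in 22.7% of ectoderm-only windows (20.3 to 25.4), 27.1% of windows open in all 4 libraries and 20.2% of all windows. Of the Sox2-positive-only windows 8.82% held them (4.11 to 17.9). At 38000 peaks per list the shares were 19.5% of Sox2-positive-only and 22.8% of ectoderm-only windows. These matches are letters in a window and not measured binding. Intervals cover the counting of windows only.

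Ambn, which encodes the enamel matrix protein ameloblastin, and Wnt3, a WNT ligand of the face, are shown as a start opened in each direction. The Ambn window, at chr5:88455741-88456040 (plus strand), had no RUNX hexamer. The Wnt3 window, at chr11:103773925-103774224 (plus strand), has its 2 AP-2 matches in capitals. The windows of Edn1 and Lmx1b, ectoderm-only starts described below, held no AP-2 match.
Ambn: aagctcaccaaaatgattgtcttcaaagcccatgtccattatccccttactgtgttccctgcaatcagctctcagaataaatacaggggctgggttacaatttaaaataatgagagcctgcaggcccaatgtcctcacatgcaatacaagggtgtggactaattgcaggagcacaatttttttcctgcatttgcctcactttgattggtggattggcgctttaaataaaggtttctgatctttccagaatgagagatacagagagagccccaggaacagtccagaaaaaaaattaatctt
Wnt3: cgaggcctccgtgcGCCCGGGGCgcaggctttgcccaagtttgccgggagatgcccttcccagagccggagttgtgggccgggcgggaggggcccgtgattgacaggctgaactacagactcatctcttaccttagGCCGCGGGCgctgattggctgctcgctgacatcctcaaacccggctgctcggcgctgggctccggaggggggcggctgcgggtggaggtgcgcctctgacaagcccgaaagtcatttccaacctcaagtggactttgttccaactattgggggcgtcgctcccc

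The Ambn start lay under Sox2-positive-only peaks with signals of 555 and 395 in replicates 1 and 2, and under peaks in all 3 whole-tooth libraries. Over the Wnt3 start the ectoderm peaks had signals of 2064 and 5732, and upper molar was the only whole-tooth library with a peak. The start of Edn1, the endothelin 1 gene that patterns the lower jaw, had ectoderm peaks of 792 and 410, and the deposited whole-tooth lists also held peaks there, of 397 to 444. The start of Lmx1b, a LIM homeobox gene, had ectoderm peaks of 662 and 342. All 4 of these starts kept their set at 38000 peaks per list. Among other genes with a Sox2-positive-only start in the deposited lists were Ibsp and Omd, which encode proteins of mineralised matrix, and Ctsk, which encodes cathepsin K. These 3 of 67 genes were chosen after their values had been seen and do not stand for the set. Other matrix genes, such as Acan, Fmod and Kera, had ectoderm-only starts.

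The lists differed in length. On the autosomes ectoderm replicates 1 and 2 held 80850 and 49719 peaks and Sox2-positive replicates 1 and 2 held 41829 and 38326, covering 51.1, 40.2, 29.1 and 26.7 Mb. Peak lists give no read counts, so the depth of each library is unknown. Most counts of either group therefore stand beside those at 38000 peaks per list, and some are given for the deposited lists alone. Sox2-positive-only regions numbered 7774, or 7.78% of all regions, and ectoderm-only regions 23127, or 23.1%. At 38000 peaks per list the counts were 9443 (14.4%) and 12121 (18.4%), so the Sox2-positive-only share of group-only regions went from 25.2% to 43.8%. With 2 libraries per group an exact two-sided permutation test cannot give a p below 0.333, and no test was made across regions.

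The balance of the sets rested on the lists used. Of the Sox2-positive-only regions at 38000 peaks per list, 25.1% had an ectoderm peak further down a deposited list, in 2329 of 2369 cases in ectoderm replicate 1. Of the ectoderm-only regions at that length, 3.60% had a Sox2-positive peak further down. These 2 shares cannot be compared, because the cut left out 42850 and 11719 peaks of ectoderm replicates 1 and 2. From Sox2-positive replicates 1 and 2 it left out only 3829 and 326. With ectoderm replicate 1 alone standing for its group there were 51664 ectoderm-only regions. With replicate 1 or replicate 2 of the Sox2-positive libraries left out, Sox2-positive-only regions numbered 14447 and 13761.

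**Figure D1:**
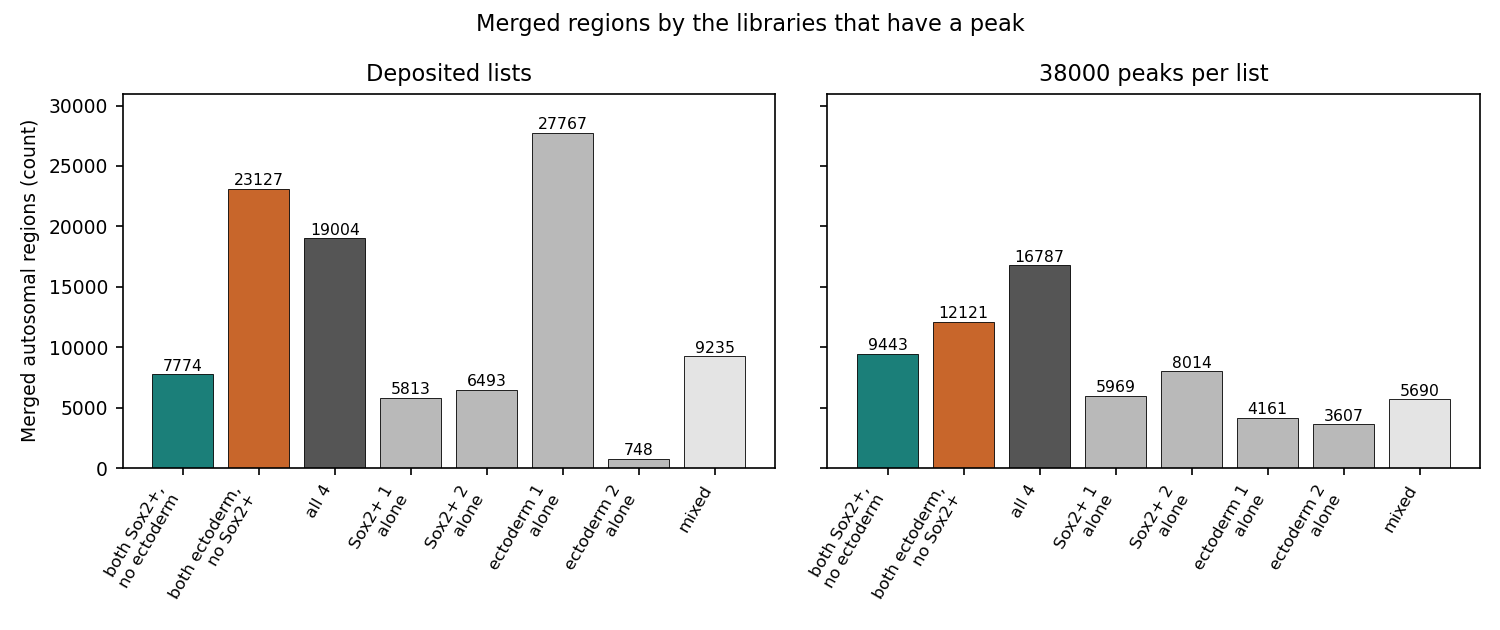
Merged autosomal regions (vertical axis, count) by which of the 4 libraries had a peak, for the deposited lists and for 38000 peaks per list, where Sox2+ stands for Sox2-positive and mixed for every other pattern. Ectoderm-only regions fall from 23127 to 12121 and the 27767 regions of ectoderm replicate 1 alone to 4161, whereas Sox2-positive-only regions go from 7774 to 9443.

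The sets also differed in the whole teeth. In whole incisor 91.7% of Sox2-positive-only and 13.4% of ectoderm-only regions had a peak, or 78.6% and 4.94% at 38000 peaks per list. In the deposited lists no whole-tooth library had a peak at 304 Sox2-positive-only regions (3.91%) or at 15087 ectoderm-only regions (65.2%).

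Both group-only sets lay mostly away from gene ends. The centre was within 1 kb of an end of a protein-coding gene in 2.86% of Sox2-positive-only regions (95% interval by Wilson's method 2.51 to 3.25) and 7.78% of ectoderm-only regions (7.44 to 8.13), against 50.7% of regions in all 4 libraries. Sox2-positive-only minus ectoderm-only, the difference came to −4.92 points of percent (−5.42 to −4.40, Newcombe 95% interval), and to −3.58 points at 38000 peaks per list. With peaks replaced by 200 bp windows at their summits it was −0.608 points (−1.28 to 0.0877). A region over a promoter window was also rarer among Sox2-positive-only regions, at 0.892% against 4.14%, and at 1.79% against 4.59% with 38000 peaks per list. A gene end is either end of a gene. On chromosomes with listed starts, 156 of 217 Sox2-positive-only regions near an end lay over 1 kb from every listed start. So did 862 of 1752 ectoderm-only regions, and starts were listed for 79.6% of genes.

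The sets also differed in the middle and far distances. Between 10 and 50 kb from a gene end lay 40.4% of Sox2-positive-only and 33.2% of ectoderm-only regions, with 40.3% and 33.7% at 38000 peaks per list. Beyond 100 kb lay 17.9% and 19.9%, with 17.05% and 20.4% at 38000 peaks per list. The median distance was 27.7 kb for Sox2-positive-only regions and 23.8 kb for ectoderm-only regions, against 0.923 kb for regions in all 4 libraries. That difference of medians, 3.87 kb, shrank to 1.31 kb at 38000 peaks per list (95% interval −0.0829 to 2.73), and it changed sign, to −2.05 kb, when ectoderm replicate 2 was also left out. Inside a gene lay 55.2% of Sox2-positive-only and 53.1% of ectoderm-only regions, a difference of 2.09 points (0.814 to 3.37).

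**Figure D2:**
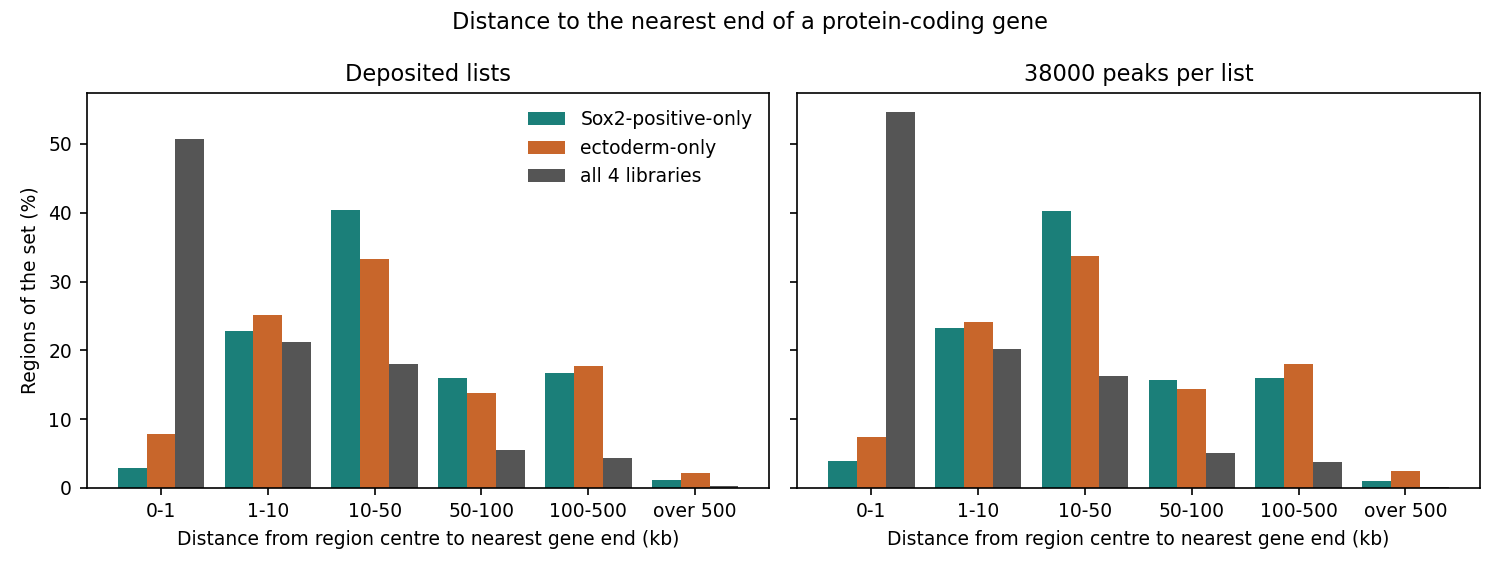
Share of regions (vertical axis, %) in 6 classes of distance from the region's centre to the nearest gene end (horizontal axis, kb). Regions of all 4 libraries pile up within 1 kb (50.7%), while both group-only sets peak between 10 and 50 kb, at 40.4% for Sox2-positive-only and 33.2% for ectoderm-only regions of the deposited lists.

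Each region was assigned to the protein-coding gene that holds it, or else to the gene with the nearest end within 100 kb, which says where a region lies and not which gene it acts on. Of 20665 autosomal genes, 65 (0.315%) gained 3 or more Sox2-positive-only regions with no ectoderm-only region, and 1153 (5.58%) lost 3 or more ectoderm-only regions with no Sox2-positive-only region. At 38000 peaks per list 211 genes (1.02%) gained and 330 (1.6%) lost. Of the 65 genes that gained in the deposited lists 52 did so in both versions, and of the 1153 that lost 303 did. Genes with 3 or more regions of each kind numbered 408 (1.97%) in the deposited lists (1.48% at 38000 peaks per list) and were long, with a median of 208 kb against 17.5 kb for all genes. Without ectoderm replicate 2 the counts were 14 gaining and 2996 losing genes. Without Sox2-positive replicate 1 or 2 the gaining genes numbered 167 and 153.

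Ptch1, which encodes the Hedgehog receptor and is itself a Hedgehog target, had the largest difference in the deposited lists, whereas Nfix had it at 38000 peaks per list. Ptch1 had 9 Sox2-positive-only and 0 ectoderm-only regions, and 11 and 0 at 38000 peaks per list. Its assigned peaks numbered 12 and 6 in the ectoderm libraries and 29 and 19 in the Sox2-positive libraries, so the groups did not overlap. Both Sox2-positive libraries had more assigned peaks than both ectoderm libraries at 3.91% of all genes (12% at 38000 peaks per list). Ptch1 was chosen for its difference in these same lists, so the separation describes it and adds no support. Whole incisor shared 8 of the 9, and so did each molar. The strongest, at chr13:63641535-63642287, had signals of 1679 and 2164 and lay 68.5 kb from the gene. These regions were part of a stretch of 15 Sox2-positive-only regions over 400 kb of chromosome 13 with no ectoderm-only region between them, the longest such run in that direction, which grew to 20 regions at 38000 peaks per list.

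Nfix, a nuclear factor I transcription factor, had 9 Sox2-positive-only regions and 1 ectoderm-only region, with 13 and 10 ectoderm peaks and 22 and 21 Sox2-positive peaks. At 38000 peaks per list it had 14 and 0, the peaks numbering 2 and 4 in ectoderm against 19 and 19. The cut thus took away more ectoderm than Sox2-positive peaks at this gene. The groups did not overlap in either version, which for Nfix too is a description of a gene chosen by these lists.

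A pair of collagen genes was among the 12 with the largest difference, although each had ectoderm-only regions too. Col1a2, a chain of type I collagen, had 8 Sox2-positive-only regions and 1 ectoderm-only region, the same at 38000 peaks per list, with 3 and 2 ectoderm peaks against 11 and 12. All 8 had a peak in whole incisor. The strongest lay 48.3 kb from the gene, at chr6:4456602-4458004, with signals of 1936 and 1892. Col5a1, a chain of type V collagen, had 10 and 3, with 7 and 4 ectoderm peaks against 11 and 15. Both are genes of mesenchyme, and the marker values given further on belong beside them.

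Pkdcc, a secreted kinase of skeletal growth, had 10 Sox2-positive-only and 3 ectoderm-only regions. Dnm3, a dynamin, had 11 and 3. Trabd2b, which encodes a membrane protease that acts on WNT proteins, had 10 and 3, but the difference went to −1 without ectoderm replicate 2. Tiam2, an activator of RAC, had 10 and 4, and Syne3, a protein of the nuclear envelope, had 8 and 2. Ino80c, a subunit of a chromatin remodeller, had 8 and 1, and Ttc39b had 6 and 0. All 7 kept more Sox2-positive-only than ectoderm-only regions at 38000 peaks per list.

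Mroh2a differed from the other gained genes in the whole-tooth libraries. It had 8 Sox2-positive-only and 0 ectoderm-only regions (6 and 0 at 38000 peaks per list), with 1 and 3 ectoderm peaks against 17 and 17. Whole incisor had a peak at 2 of the 8 regions, lower molar at 2 and upper molar at 1. The regions were part of a run of 14 within 88.4 kb of chromosome 1, from Ugt1a1 past Hjurp to Trpm8. In that stretch the Sox2-positive libraries had 37 and 28 peaks, the ectoderm libraries 5 and 7 and the whole-tooth libraries 10 to 12, and 8 of the 14 regions had no whole-tooth peak. Among all Sox2-positive-only regions 3.91% had none.

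**Figure D3:**
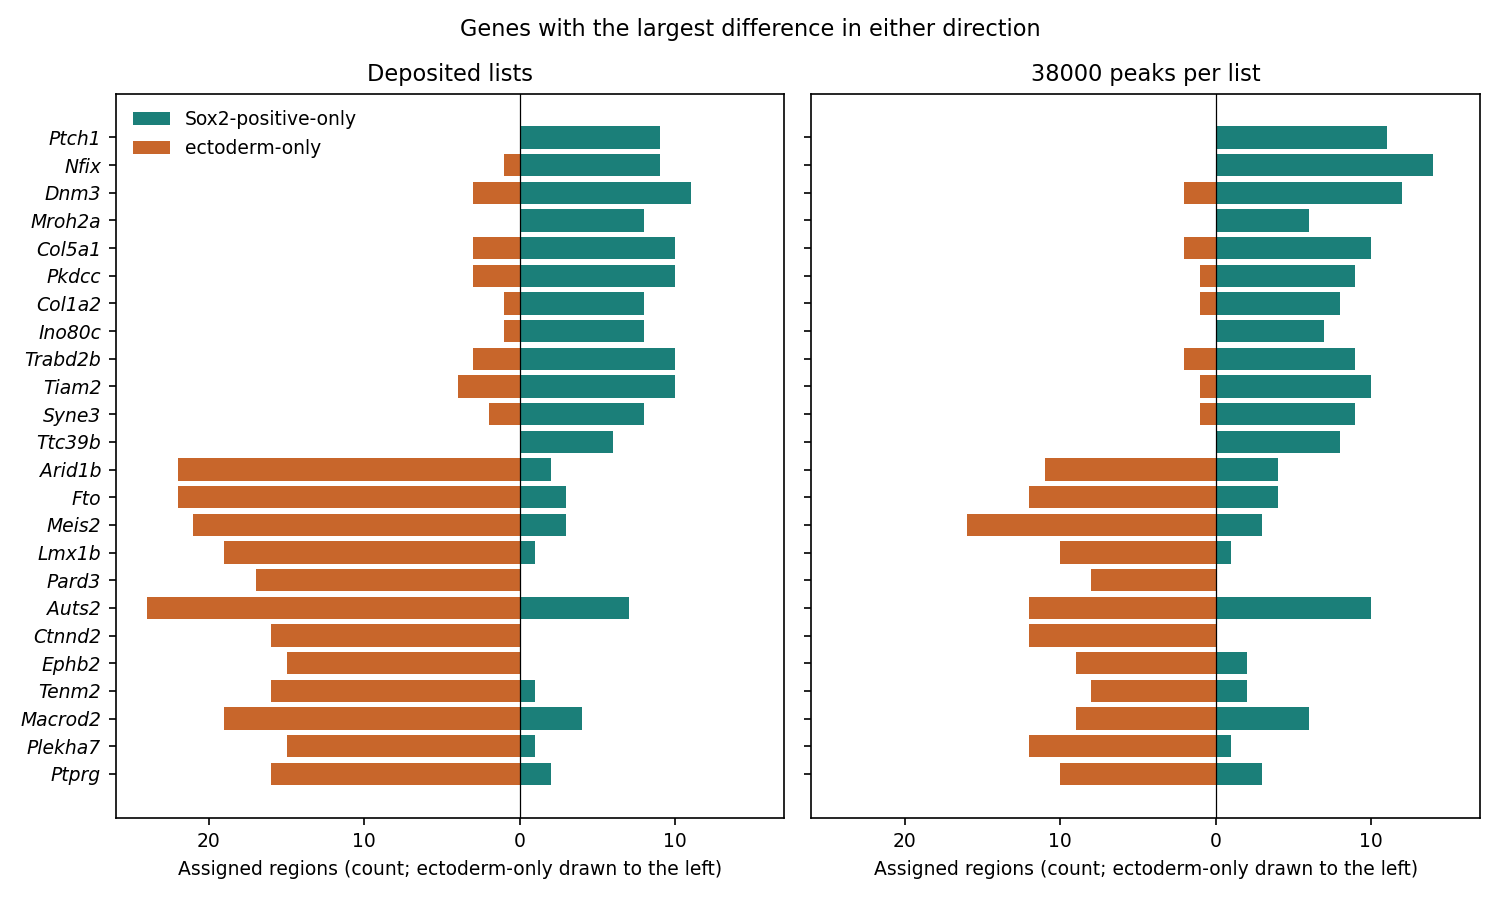
Number of assigned regions (horizontal axis) for the 12 genes with the largest and the 12 with the smallest difference in the deposited lists, Sox2-positive-only to the right and ectoderm-only to the left, for both versions of the lists. The 12 gained genes still have more Sox2-positive-only regions at 38000 peaks per list, Ptch1 going from 9 to 11, whereas ectoderm-only bars shorten, Arid1b going from 22 to 11.

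Among the lost genes, Meis2, a homeobox transcription factor, had 3 Sox2-positive-only and 21 ectoderm-only regions, and 3 and 16 at 38000 peaks per list. It had 35 and 23 ectoderm peaks against 3 and 3, and 20 and 18 against 3 and 3 at equal length. Its region within 1 kb of a gene end, at chr2:116065491-116068060, had ectoderm signals of 4739 and 5025. Lmx1b had 1 and 19 regions (1 and 10 at equal length), with 30 and 23 ectoderm peaks against 2 and 3, and 14 of its 19 ectoderm-only regions had no whole-tooth peak. At both genes every Sox2-positive library had at most 3 assigned peaks. Both ectoderm libraries had more assigned peaks than both Sox2-positive libraries at 27.1% of all genes (14.4% at 38000 peaks per list). The lost genes were chosen for their difference in these same lists, so such a separation describes them and adds no support.

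Pard3, a polarity protein, had 0 Sox2-positive-only and 17 ectoderm-only regions, with 44 and 26 ectoderm peaks against 14 and 8, so several peaks remained in both Sox2-positive libraries. At 38000 peaks per list it had 0 and 8, with 17 and 17 ectoderm peaks against 10 and 8. Plekha7, a protein of adherens junctions, had 1 and 15 (1 and 12 at equal length), with 35 and 19 ectoderm peaks against 8 and 3. Ctnnd2, a catenin, had 0 and 16 (0 and 12 at equal length), with 41 and 21 against 9 and 3. At equal length the peaks numbered 16 and 17 against 7 and 3 at Plekha7 and 16 and 17 against 9 and 3 at Ctnnd2. Ephb2, an ephrin receptor, had 0 and 15 (2 and 9 at equal length). Ptprg, a receptor phosphatase, had 2 and 16 (3 and 10), and Tenm2, a teneurin, had 1 and 16 (2 and 8). Arid1b, a subunit of a chromatin remodeller, had 2 and 22 (4 and 11). Fto, whose introns are known for long-range enhancers of Irx3, had 3 and 22 (4 and 12). Auts2, with 7 and 24, came near balance at 38000 peaks per list, with 10 and 12, as did Macrod2, going from 4 and 19 to 6 and 9. The 12 lost genes were 80.2 to 1998 kb long, against a median of 17.5 kb for all genes, and the part that length has in their counts was not tested.

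**Figure D4:**
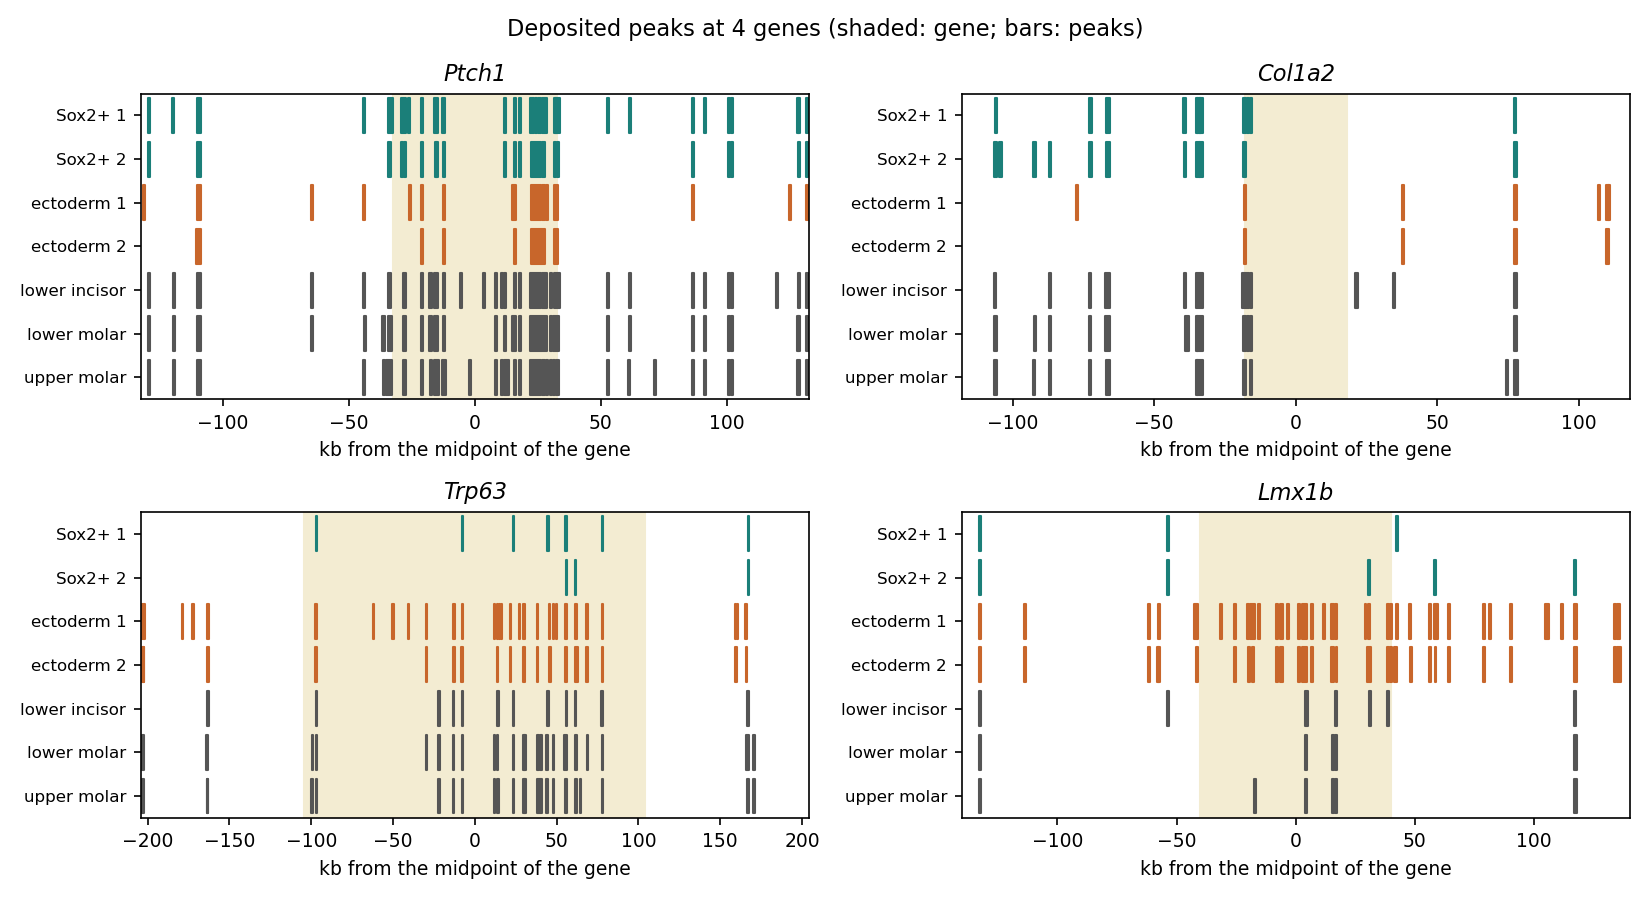
Deposited peaks (bars) of all 7 libraries at 4 genes, by distance from the midpoint of the gene (horizontal axis, kb), with the gene shaded and 100 kb shown on each side. In these spans the Sox2-positive libraries had 33 and 21 peaks against 16 and 7 in ectoderm at Ptch1, whereas at Lmx1b they had 3 and 5 against 39 and 29.

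Pathway and role lists were read against all genes, where 25.5% of 26994 assigned group-only regions were Sox2-positive-only in the deposited lists and 44.6% at 38000 peaks per list. In the deposited lists 7.72% of genes had more Sox2-positive-only than ectoderm-only regions and 35.5% had fewer. The corresponding shares were 13.7% and 20.5% at 38000 peaks per list, and the median difference over all genes was 0 in both. Regions of a gene are not independent, so the intervals on lists cover the counting of regions only. At least 1 Sox2-positive-only region was assigned to 19.8% of genes and at least 1 ectoderm-only region to 41.8% (22.3% and 28.5% at equal length). A Sox2-positive-only region within 1 kb of an end was present at 1.05% of genes and an ectoderm-only one at 8.19%, or 1.71% and 4.31% at equal length.

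Genes of general epithelium leaned to ectoderm. The 15 genes had 5 Sox2-positive-only and 55 ectoderm-only regions (8.33%, Wilson 95% interval 3.61 to 18.1), with 13 genes on the ectoderm side, 2 on the other and a median difference of −2. At 38000 peaks per list the share was 11.6% (5.07 to 24.5). Trp63, which encodes the p63 factor of stratified epithelia, had 0 and 10, then 0 and 9, with 28 and 16 ectoderm peaks against 7 and 2. Grhl3, a grainyhead factor of the epidermal barrier, had 0 and 8, then 0 and 6, with 14 and 12 peaks against 2 and 2. Klf5, a zinc-finger factor of basal epithelium, had 0 and 5, then 0 and 4. The desmosome gene Dsp had 0 and 4 in both versions, and Cdh1, which encodes E-cadherin, 0 and 6, then 0 and 3. Grhl2 had 1 and 8, but 1 and 2 at equal length. Krt14, a keratin of basal cells, went the other way with 2 and 0 in both versions, as did Cdh3, which encodes P-cadherin, with 2 and 1.

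Facial ectoderm patterning genes leaned the same way, with 7 Sox2-positive-only and 51 ectoderm-only regions over 15 genes (12.1%, 5.97 to 22.9). With equal list lengths the share was 26.5% (14.6 to 43.1). Pitx1, a homeobox factor of the lower jaw, had 0 and 9, then 0 and 7, with 21 and 13 ectoderm peaks against 4 and 5. The AP-2 factor Tfap2a had 0 and 10, then 1 and 5, and Tfap2b 0 and 5, then 0 and 2, with 8 and 6 ectoderm peaks against 0 and 0. Edn1 had 0 and 5, then 0 and 4. Fgf8, the leading signal of the oral ectoderm, had 1 and 1, then 0 and 1. Foxi3, a forkhead factor of ectodermal organs, had 2 and 2, then 3 and 1.

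The Hedgehog list as a whole sat at the level of all genes, at 28.2% (20 of 71 regions) and 27 of 60 regions at 38000 peaks per list, and its members diverged. Shh, the ligand, had 0 Sox2-positive-only and 3 ectoderm-only regions, 1 of them at a gene end, then 0 and 2 at equal length. Beside the receptor Ptch1, the co-receptor Cdon had 0 and 6 and Boc 1 and 4. At 38000 peaks per list Cdon went to 0 and 2 and Boc to 3 and 2. Gli1, an effector and target of the pathway, had 1 and 0, the region lying at a gene end, but none at equal length. Gli2 had 6 and 10, then 6 and 8, and Gli3, the main repressor, 3 and 15, then 3 and 10. The inhibitors Hhip and Sufu had 0 and 6 each, then 0 and 4 at Hhip and 2 and 4 at Sufu. Ptch1 and Gli1 were the members on the Sox2-positive side in the deposited lists.

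The WNT list had 27 Sox2-positive-only and 74 ectoderm-only regions (26.7%), and 52.2% at 38000 peaks per list (40.6 to 63.5). Of its ligands Wnt4 had 0 and 9, then 1 and 4, and Wnt6 had 0 and 5, then 0 and 3. Wnt7b, a ligand of oral and dental epithelium, had 5 and 3, then 6 and 2. Of the transcription factors, Tcf7l1 had 1 and 12, then 2 and 7, whereas Tcf7l2 had 2 and 2, then 6 and 0, and Tcf7 had 4 and 2, then 3 and 2. Among the 6 strongest Sox2-positive-only regions was 1 inside Tcf7, at chr11:52271631-52273782, with signals of 2677 and 3664 and a peak in all 3 whole-tooth libraries.

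In the FGF list, with 33.3% of 54 regions and 57.1% at 38000 peaks per list (42.2 to 70.9), the receptor Fgfr2 had 3 and 12, then 4 and 6. The ligand Fgf20 had 0 and 2 in both versions. Other members went the other way at equal length, such as Spred2, from 4 and 4 to 4 and 1, and Etv4, from 1 and 0 to 2 and 0. Of 17 FGF members 3 had more Sox2-positive-only regions, 6 had fewer and 8 had equal numbers (9, 6 and 2 at 38000 peaks per list). The BMP and activin list had 26.4% of 72 regions and 51.8% at equal length (39.0 to 64.3). There the receptor Bmpr1b had 1 and 8, then 1 and 4, and Inhba, an activin subunit, had 2 and 0 in both versions. Smad6, an inhibitor of BMP signalling, turned from 0 and 7 to 4 and 1, so its direction depends on the length of the lists. The Notch list had 32.6% of 43 regions and 55.3% at equal length (39.7 to 69.9). Its target Hes1 had 0 and 8, then 2 and 4, the ligand Jag1 1 and 6, then 1 and 5, and Lfng, a modifier of the receptors, 3 and 1, then 4 and 0. The equal-length intervals of the WNT, FGF, BMP and Notch lists all held the 44.6% of all genes.

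The Hippo list had 5 and 32 regions in the deposited lists (13.5%, 5.91 to 28.0) and 31.0% at 38000 peaks per list (17.3 to 49.2). Both intervals held the share of all genes, and of 12 members 6 had more ectoderm-only regions and 6 had equal numbers in the deposited lists. Tead1, the DNA-binding partner of YAP, accounted for 0 and 12, then 2 and 9, and Amotl2, a YAP target and regulator, for 1 and 9, then 1 and 6. The 7 genes of the ectodysplasin list had 10 and 8 regions, and 11 and 10 at equal length, with the receptor Edar at 4 and 4 in both.

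Markers of the incisor progenitors had 11 Sox2-positive-only and 26 ectoderm-only regions (29.7%), and 41.4% at 38000 peaks per list (25.5 to 59.3). Sox2, the gene used for the sort and therefore no finding, had 1 and 4, then 1 and 1, with a gene-end peak in all 4 libraries. Lgr5, a stem cell marker, had 0 and 4, then 0 and 3, with 9 and 6 ectoderm peaks against 3 and 2. Lrig1, another progenitor marker, had 5 and 5, then 5 and 4, and all 5 of its Sox2-positive-only regions had a peak in whole incisor.

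Enamel and ameloblast genes had 13 Sox2-positive-only and 20 ectoderm-only regions (39.4%, 24.7 to 56.3), and 18 of each at 38000 peaks per list. Of 16 genes 9 had more ectoderm-only regions, 4 had fewer and 3 had equal numbers (7, 6 and 3 at 38000 peaks per list). Among those on the Sox2-positive side, Satb1, a genome organiser of ameloblasts, had 4 and 1, then 5 and 1, with 4 and 3 ectoderm peaks against 8 and 7. Sp6, a transcription factor required for enamel, had 3 and 1, then 4 and 0, with 1 Sox2-positive-only region at a gene end. Fam20a, a pseudokinase of enamel formation, had 2 and 0 in both versions. On the ectoderm side, Itgb6, an integrin subunit of ameloblasts, had 0 and 6, then 1 and 6, and the protease gene Klk4 had 0 and 2, then 0 and 3.

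**Figure D5:**
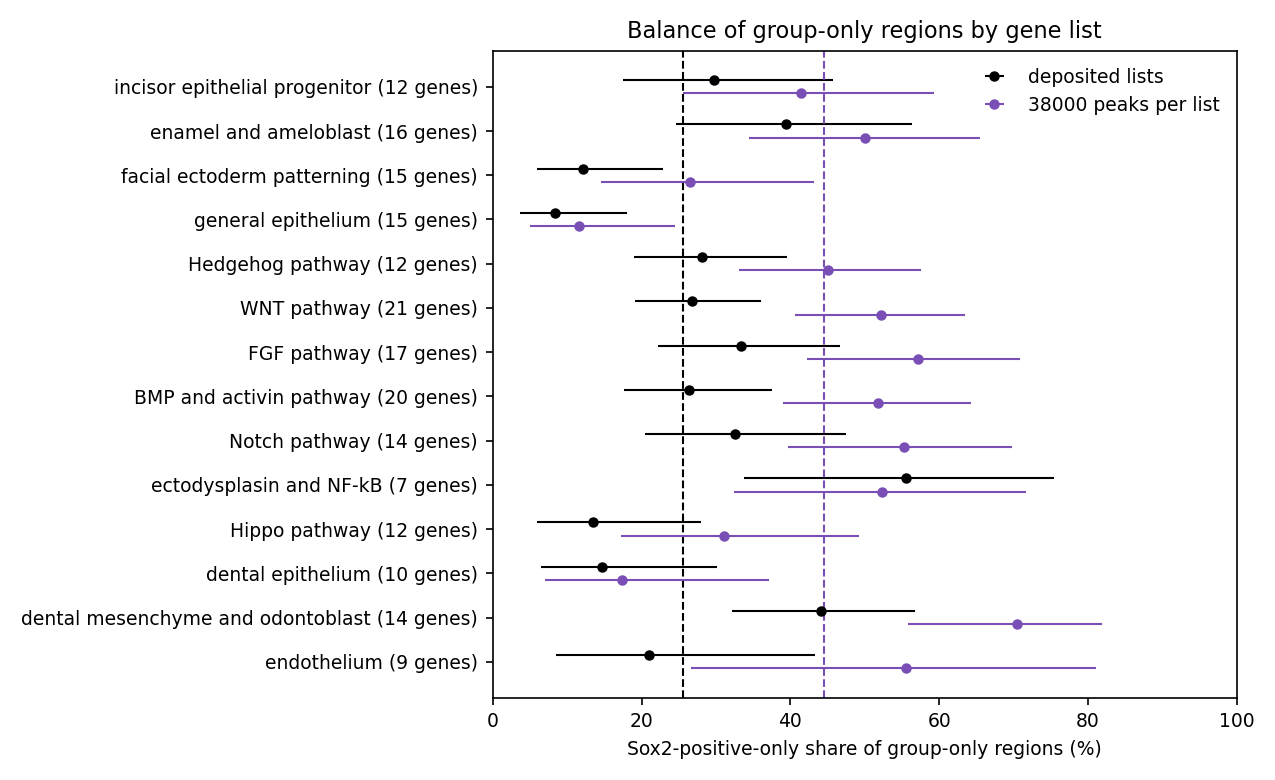
Sox2-positive-only share of the group-only regions assigned to each list (horizontal axis, %, with Wilson 95% intervals), with dashed lines for all genes at 25.5% and 44.6%, and lists with fewer than 18 such regions in the deposited lists left out. General epithelium stands at 8.33% and 11.6%, and dental mesenchyme and odontoblast at 44.1% and 70.5%.

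The labels were checked with peaks within 1 kb of a gene end. Of 10 dental epithelium markers, ectoderm replicates 1 and 2 had 7 and 6 and each Sox2-positive library had 9. Such a peak stood at Krt17 and Ambn in the Sox2-positive libraries and was missing from both ectoderm lists (for Krt17 in replicate 2 alone at 38000 peaks per list), and Trp63 had none in any of the 4. Of 14 dental mesenchyme and odontoblast markers the ectoderm libraries had 10 and 8 and the Sox2-positive libraries 8 and 8, so peaks at mesenchymal genes were present in every library. With 38000 peaks per list these were 5 and 6 in ectoderm and 7 and 8 in Sox2-positive cells, and the order turned round. The dental epithelium counts were then 6 and 6 against 8 and 9. The defining odontoblast genes Dspp and Dmp1 had no gene-end peak in these 4. Farther from the ends, Sox2-positive replicate 2 alone of the 4 had assigned peaks, 1 at Dspp and 2 at Dmp1. Blood and immune markers had 2 and 2 of 8 in ectoderm and 1 and 1 in Sox2-positive cells, and endothelial markers 4 and 4 against 2 and 3 of 9. Ptprc and Pecam1 had none in any of the 4 libraries. Neural and Schwann markers had 6 and 4 of 7 in ectoderm and 4 and 5 in Sox2-positive cells. Muscle markers had 5 and 3 against 2 and 1 of 6, and Hox genes 2 and 1 against 0 and 0 of 14. At 38000 peaks per list blood markers stayed at 2 and 2 against 1 and 1. Endothelial markers then had 2 and 2 against 2 and 3, and neural markers 4 and 4 against 4 and 5. Muscle markers had 2 and 3 against 1 and 1, and Hox genes 0 in each library. The larger ectoderm counts for endothelial and Hox genes were thus absent at equal length. By assigned regions the dental epithelium markers had 5 Sox2-positive-only and 29 ectoderm-only, endothelium 4 and 15, blood 5 and 4, neural 2 and 1, muscle 1 and 8, and Hox 1 and 11. At equal list lengths these were 4 and 19, 5 and 4, 4 and 1, 2 and 1, 1 and 5, and 1 and 6, so the endothelial balance turned round.

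The mesenchymal markers had a larger Sox2-positive-only share than all genes, carried by a few members. Over 14 genes 26 of 59 group-only regions were Sox2-positive-only (44.1%, Wilson 95% interval 32.2 to 56.7), and 31 of 44 at 38000 peaks per list (70.5%, 55.8 to 81.8). By gene, 5 had more Sox2-positive-only regions, 4 had fewer and 5 had equal numbers (6, 3 and 5 at 38000 peaks per list), with a median difference of 0 in both versions. Beside Col1a2, Pdgfra, a receptor of mesenchyme, had 6 and 3, then 6 and 1, and Runx2, the master factor of bone, had 5 and 4, then 7 and 3. The region over the Runx2 start shown above is not in these counts. Its centre lay just past the end of Runx2, and it was assigned to another gene. At the ends of Pdgfra and Runx2 each Sox2-positive list held a peak and neither ectoderm list did. Msx1, a homeobox gene of the dental mesenchyme, went the other way with 0 and 9, but 0 and 1 at equal length, and so did Barx1 with 0 and 6, then 0 and 2, Pax9 with 1 and 4, then 1 and 1, and Lhx6 with 0 and 3, then 0 and 2. The part that mesenchymal cells have in any of these results was not tested.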

How the data were processed

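ATAC-seq peaks of 7 mouse libraries were used as the authors deposited them, 1 narrowPeak list per library. The submitters' processing notes name FastQC, Trimmomatic, Bowtie2, deepTools and Genrich with the build mm10, without versions or options. Each deposited peak has a signal, the area under the significance curve in this caller's standard output, and a −log10 of its p-value. Neither is normalized between libraries by anything in the files, and both were used inside each list, to order it or to describe a site. At rank 38000 several peaks of a list shared the same −log10 p (108 to 2077 of them), and ties were broken by signal. That rank fell at a −log10 p of 4.79 and 3.82 in ectoderm replicates 1 and 2. In Sox2-positive replicates 1 and 2 it fell at 3.33 and 2.94, so the cut asked for smaller p-values in ectoderm.

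Regions, gene assignment and windows were computed with Python 3.11.15, NumPy 2.4.6, pandas 2.3.3 and SciPy 1.17.1, and figures with Matplotlib 3.10.9. The merging and assignment steps were tested on simulated lists. Genes came from a RefSeq table of GRCm38.p6 (20665 protein-coding genes on the autosomes), and promoter windows covered 79.6% of them on 18 of the chromosomes. Distances run from a region's centre to the nearer end of a gene, since the table gives no strand. Groups and replicate numbers came from the sample titles. Chromosomes X and Y were left out by rule.

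The genes named were the 12 with the largest and the 12 with the smallest difference in the deposited lists, predicted genes left out, members of the lists with a difference of 2 or more regions or a group-only region at a gene end, and, for contrast and after their values were seen, some members with smaller differences. Likewise fixed were the 6 strongest regions and 5 longest runs per set, of which those that bear on named genes are given. The comparison, its members and the lists were chosen with earlier results of these data known. Alternatives changed list length, ranking, overlap, peak width, gene assignment, the gene-end window and the libraries used. Some genes of the lists are not reported here.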

Additional observations from a re-analysis of the deposited data

Results flagged for a closer look

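Peaks outside the autosomes entered no comparison, and their numbers were above the 3 that a count of 0 allows in all but 1 case. On chromosome X there were 1560 and 1009 peaks in ectoderm replicates 1 and 2 and 719 and 647 in Sox2-positive replicates 1 and 2. By the same rule X held 57 Sox2-positive-only and 414 ectoderm-only regions. On chromosome Y there were 17 and 20 peaks in ectoderm and 10 in Sox2-positive replicate 1, with 0 in replicate 2. On unplaced contigs there were 34 and 44 peaks in ectoderm and 48 and 44 in Sox2-positive cells.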

How the results depend on the processing

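No paired analysis was possible because the results are counts from peak lists and come from no test, and nothing ties the shared replicate numbers to shared animals. Depth is unknown and limits every count. In the values that follow, the gene-end difference and the difference of medians are Sox2-positive-only minus ectoderm-only. The cause of each change was not tested, beyond what the alternative itself removes.

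Ranking by p-value to 38000 peaks per list left 12121 ectoderm-only regions, a Sox2-positive-only share of 43.8%, a gene-end difference of −3.58 points, a difference of medians of 1.31 kb, and 211 gaining and 330 losing genes. By signal these were 12366 regions, 43.1%, 0.51 kb, 208 and 354 genes. With the upper 50% of each list there were 2944 Sox2-positive-only and 10318 ectoderm-only regions, a share of 22.2%, −10.6 points, 8.89 kb, and 29 gaining and 474 losing genes. Where a peak had to cover 50% of a region the share was 23.9%, with −7.23 points and 5.55 kb. With 200 bp summit windows it was 27.1%, with −0.608 points and 0.75 kb. Gene-end windows of 500 bp and 2.5 kb gave −3.36 and −6.41 points, and assignment within 25 kb gave 738 losing genes.

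Leaving out 1 library at a time gave 7845 to 14447 Sox2-positive-only and 24446 to 51664 ectoderm-only regions and a share of 13.2% to 36.0%. It gave −5.33 to −3.02 points, 0.491 to 6.05 kb, 14 to 167 gaining and 823 to 2996 losing genes. Leaving out libraries at 38000 peaks per list was chosen after seeing the data. Without ectoderm replicate 1 the share was 38.18%, with 177 gaining and 552 losing genes. Without ectoderm replicate 2 it was 38.19%, with −1.16 points, a median difference that changed sign to −2.05 kb, and 168 and 529 genes. Without Sox2-positive replicate 1 there were 17636 Sox2-positive-only and 14569 ectoderm-only regions, a share of 54.8%, 2.38 kb, and 501 and 266 genes. Without Sox2-positive replicate 2 there were 15567 and 13185 regions, a share of 54.1%, and 413 and 214 genes.

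Of 130 named genes 79 had a difference of 3 or more regions, and 54 of these kept its sign in the 13 alternatives computed for single genes, which did not include leaving out libraries at 38000 peaks per list. Another 20 reached a difference of 0 in at least 1 alternative without changing sign. The 5 that changed sign were Boc (1 at 38000 peaks per list, by p-value and by signal), Smad6 (3 by p-value, 2 by signal and 3 with the upper 50%), Bmpr2 and Ephb2 (1 each with the upper 50%), and Trabd2b (−1 without ectoderm replicate 2, the lowest of −1 to 11 with 1 library left out).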
